A study of Mus musculus with 14 samples.

Results

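The 78 genes described here code for the proteins of the cytosolic ribosome, the particle that makes protein from messenger RNA outside the mitochondria. They are the rows of the count table whose symbol begins with Rpl, Rplp or Rps followed by a number, with at least 10 counts in 3 or more libraries, and all 78 rows that match the symbol meet that minimum, out of 45706 rows in all; all 78 also passed the filter on low counts used for testing. By their symbols 32 belong to the small subunit, which reads the messenger, and 46 to the large subunit, which joins the amino acids. The GENCODE annotation of GRCm38 lists 76 of them as protein-coding, 30 small and 46 large, and lists Rps3a2 and Rps3a3 as processed pseudogenes, so these are set apart below.

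A cell needs the proteins of a ribosome in equal number, and their genes are known for being expressed together and at high levels in every tissue. Many of their messengers begin with a run of pyrimidines (a terminal oligopyrimidine tract) through which the kinase complex mTORC1, a sensor of amino acids such as leucine, sets how far they are translated. RNA counts do not measure that translational step. In the liver, ribosomes make the secreted plasma proteins as well as the enzymes of metabolism.

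Liver RNA of male C57BL6/J mice, 8 weeks old when feeding began, was sequenced in 14 libraries. The MASH OAL group (3 libraries, replicates 1, 2 and 4) and the MASH OA group (4 libraries) received a MASH diet for 16 weeks and then, still on that diet, C18:1-leucine or C18:1 for 6 more weeks; OA is read as the fatty acid C18:1 (oleic acid) and OAL as the same acid joined to leucine. The MASH group (3 libraries, replicates 2, 3 and 4) received the MASH diet alone (MASH is a fatty liver disease with inflammation and scarring) and the chow group (CD, 4 libraries) a standard chow. For both of these groups 16 weeks of diet and no treatment time are listed. Any difference from the treated groups in age or in weeks on diet cannot be told apart from the treatment. The sources used here give neither the doses, nor when the chow mice were killed, nor whether the MASH mice received a vehicle. The labels do not say that each library came from a separate mouse, so p-values measure only the spread between these libraries.

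Total counts ran from 33821899 to 51107275 per library, and every protein-coding member had at least 2255 counts in each library. Groups were read from the titles, and the treatment tags of 2 libraries disagreed with them. MASH OA replicate 1 is tagged with the diet alone and MASH OAL replicate 1 as OA. Counts of members past the edgeR threshold that rest on either are given with and without it. Counts in the wider gene lists are given without MASH OAL replicate 1 at most. Fold changes of single genes and cell marker counts are given with these libraries included. Defining hepatocyte transcripts were abundant in every library, at 82906 to 98894 CPM of the library total (counts scaled to a common library size) in MASH OAL, 65496 to 75043 CPM in MASH OA, 76886 to 81773 CPM in MASH and 97202 to 114102 CPM in chow (13 genes summed).

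The stretches of DNA around the transcription starts are shown for 6 members because the pyrimidine run that opens many of these messengers lies at a start. They were read from RefSeq's promoter table of GRCm38.p6, which held 66 starts of 56 members, and run from 15 bases before a start to 15 bases after it. Capitals mark a match to the TCT motif in one of 8 spellings, CCTTT or else TCTTT, with CC or CT or TC or TT after it, on the transcribed strand.
Rps27, chr3:90213634-90213663, minus strand: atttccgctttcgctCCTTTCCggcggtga
Rps6, chr4:86857353-86857382, minus strand: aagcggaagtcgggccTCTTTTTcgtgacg
Rpl13a, chr7:45128731-45128760, minus strand: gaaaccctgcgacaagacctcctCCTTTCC
Rps12, chr10:23787195-23787224, minus strand: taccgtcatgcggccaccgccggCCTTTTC
Rps18, chr17:33955651-33955680, minus strand: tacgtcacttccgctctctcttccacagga
Rplp2, chr7:141447636-141447665, plus strand: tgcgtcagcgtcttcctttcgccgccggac

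Of the 66 starts of members, 17 (25.8%) held a TCT form in this window, against 925 of 32851 starts in the whole table (2.82%). On the opposite strand 0 of the members' starts held one, against 2.42% of all. The sequence CCGGAAG, the core letters bound by ETS factors, stood on either strand within the 250 bases before to 50 bases after a start in 36.4% of the members' starts and in 8.86% of all, and it can share end bases with a TCT form. TATAAA stood in the 50 bases before a start, on the transcribed strand, in 0 of the members' starts and in 2.63% of all. Rps27, which differed most between MASH and chow livers, and Rps12, which differed least, both carry a form in this window, while Rps18 and Rplp2 carry none of the 8 spellings there.

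The comparison of MASH with chow livers asks how the diet moved the ribosome's own genes. Relative to the bulk of the liver transcriptome, as set by TMM scaling, MASH livers had lower levels of nearly the whole set: 60 of 78 members fell and 0 rose, in a comparison where 15.1% of all 15676 genes tested fell and 20.4% rose (edgeR's quasi-likelihood test, adjusted p under 0.05 after Benjamini and Hochberg over all genes). The members' median log2 fold change was −0.28, against 0.01 over all genes, and each of the 76 protein-coding members lay below 0. Against library totals alone this fall is not seen, since then 2 members fell, 0 rose and their median was −0.00, while the median of all genes moved to 0.28; the difference between members and all genes was −0.28 under either scaling. The fall is thus one relative to most other genes. A change of scaling moves all genes of a library alike, so the distance between members and all genes could hardly have changed.

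Both scales can be read from the sums. The summed TMM-scaled level of the 78 genes was 18478, 15687 and 16220 CPM in MASH OAL, 14360, 15088, 14865 and 14654 CPM in MASH OA, 13847, 14851 and 14806 CPM in MASH, and 17002, 17308, 17572 and 18356 CPM in chow. All MASH and MASH OA libraries lay below all chow libraries, and 1 of the MASH OAL libraries, replicate 1, lay above them. As a share of all counts the same genes took 1.62% ± 0.0936 in MASH OAL (SD, n = 3), 1.66% ± 0.0708 in MASH OA (n = 4), 1.53% ± 0.126 in MASH (n = 3) and 1.54% ± 0.0374 in chow (n = 4), and these ranges overlap between MASH and chow. The 50 most abundant other genes took 31.7% ± 0.717 of the counts in MASH OAL, 28.6% ± 1.04 in MASH OA, 29.7% to 30.5% in MASH and 32.2% ± 0.629 in chow.

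**Figure D1:**
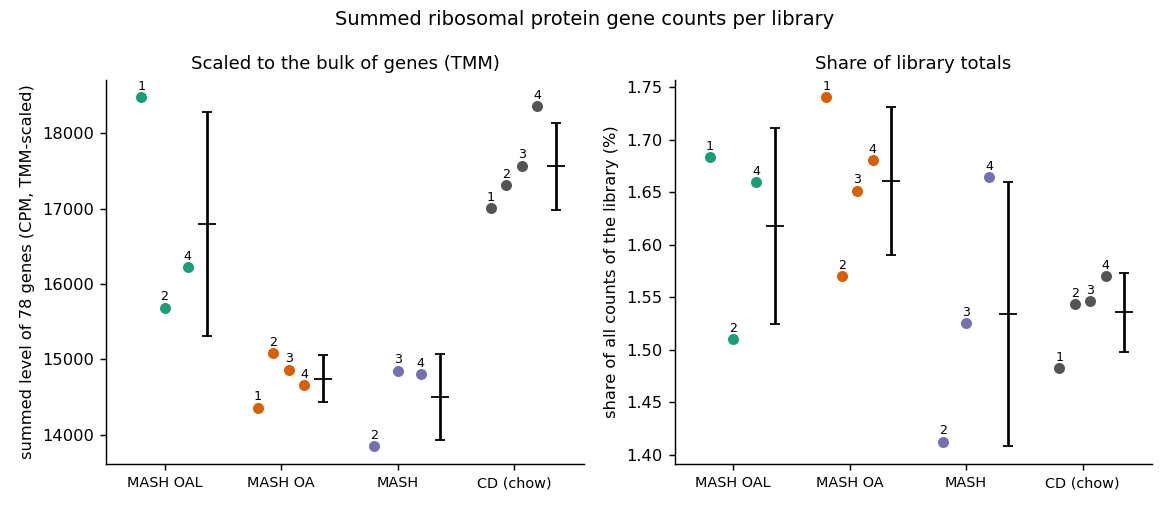
Summed counts of the 78 ribosomal protein genes in each library, as TMM-scaled CPM (left) and as a percentage of the library's total count (right); points are libraries with their replicate numbers, bars are the mean and SD of a group, and neither axis starts at 0. On the left the MASH and MASH OA libraries lie below all chow libraries, at 13847 to 15088 CPM against 17002 to 18356; on the right the MASH and chow groups overlap.

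Falls were found in both subunits in MASH livers under TMM scaling. Of the 30 protein-coding small subunit genes 24 fell (median −0.28 on the log2 scale), and of the 46 large subunit genes 35 fell (median −0.27). Library totals alone remove nearly all of these calls, as given above. In 67 of 78 members every MASH library lay below every chow library, where 17.8% of all genes did so; 0 members lay wholly above, where 22.5% of all genes did.

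Among the small subunit genes, Rps27, whose product binds a zinc ion, had the largest fall. Its level was 122.8, 122.7 and 134.7 CPM in MASH livers and 170.0, 177.3, 189.9 and 190.8 CPM in chow livers. The groups stood well apart, and the log2 fold change was −0.52 ± 0.09 (SE; adjusted p = 0.000623 by edgeR), a fall of 30.4%. Rps18, which sits in the head of the small subunit, averaged 264.1 ± 3.04 CPM in MASH (SD, n = 3) and 362.0 ± 21.4 CPM in chow livers (n = 4). Its 3 MASH libraries were nearly equal and all below chow (log2 fold change −0.46 ± 0.09, adjusted p = 0.00184 by edgeR).

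Rps27a is made as a fusion of ubiquitin with a ribosomal protein and so supplies both the ribosome and the cell's ubiquitin. It stood at 156.7, 160.3 and 173.2 CPM in MASH livers against 199.3, 217.4, 227.8 and 231.1 CPM in chow livers, with no overlap and a log2 fold change of −0.42 ± 0.09 (adjusted p = 0.00231 by edgeR). Rps6, the substrate of the S6 kinases downstream of mTORC1, stood at 263.1, 289.6 and 268.2 CPM in MASH against 340.8, 351.9, 347.9 and 369.8 CPM in chow livers. All 3 MASH values were lower (−0.37 ± 0.07, adjusted p = 0.00219). Rps3, which lines the entry of the messenger channel and also acts in DNA repair, changed by −0.30 ± 0.08 (adjusted p = 0.00824).

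Among the large subunit genes Rpl36 fell most. It had 82.8, 89.6 and 87.8 CPM in MASH livers and 111.0, 122.7, 126.7 and 137.4 CPM in chow livers, without overlap, and its log2 fold change was −0.52 ± 0.10 (adjusted p = 0.00144 by edgeR). Rpl36 and Rps27 were the 2 members still lower when libraries were scaled by their totals alone, at −0.25 for both with adjusted p of 0.0379 and 0.0308. Rpl13a, which in human cells also leaves the ribosome to restrain translation of inflammatory messengers, averaged 383.7 ± 17.6 CPM in MASH and 493.7 ± 13.1 CPM in chow livers (−0.36 ± 0.08, adjusted p = 0.0053). Rpl10, which joins the large subunit late in its assembly, averaged 321.1 ± 14.7 CPM in MASH and 406.2 ± 23.6 CPM in chow livers (−0.34 ± 0.07, adjusted p = 0.0038).

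Rpl5 and Rpl11 bind 5S ribosomal RNA and, when free of ribosomes, the p53 regulator Mdm2. Both fell, Rpl5 at 240.4 ± 16.9 CPM in MASH against 292.7 ± 18.3 in chow livers (−0.28, adjusted p = 0.0144) and Rpl11 at 232.4 ± 6.95 CPM in MASH against 283.6 ± 17.1 in chow livers (−0.29, adjusted p = 0.0138). The call of Rpl5 was lost without MASH replicate 2 or without MASH replicate 3. Of the stalk proteins, which recruit elongation factors, Rplp2 fell by 0.23 on the log2 scale (adjusted p = 0.0391), a call lost in 9 of 25 alternatives, among them leaving out chow replicate 3 or 4, MASH replicate 2 or 4, or MASH OA replicate 4, while Rplp0 at −0.20 (adjusted p = 0.0561) and Rplp1 at −0.22 (adjusted p = 0.0799) missed the threshold.

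The 18 members that missed the threshold were 7 small and 11 large subunit genes. Rps12 lay closest to chow, at 162.8, 183.5 and 198.0 CPM in MASH livers and 179.0, 190.4, 180.8 and 198.6 CPM in chow livers, with overlapping ranges and MASH replicate 2 below all chow libraries (−0.05, 95% interval −0.23 to 0.14). Rps19, a protein needed to mature the small subunit's RNA and the one most often mutated in Diamond-Blackfan anaemia, differed by −0.06 (interval −0.21 to 0.09). Rpl3, which lies near the centre where peptide bonds are formed, had 209.5, 254.4 and 260.7 CPM in MASH and 266.2, 235.6, 256.0 and 299.5 CPM in chow livers and differed by −0.13 (interval −0.37 to 0.11). Rps4x, carried on the X chromosome, differed by −0.16 (adjusted p = 0.0995), and Rpl41, the shortest of the ribosomal proteins, by −0.23 (adjusted p = 0.0677).

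**Figure D2:**
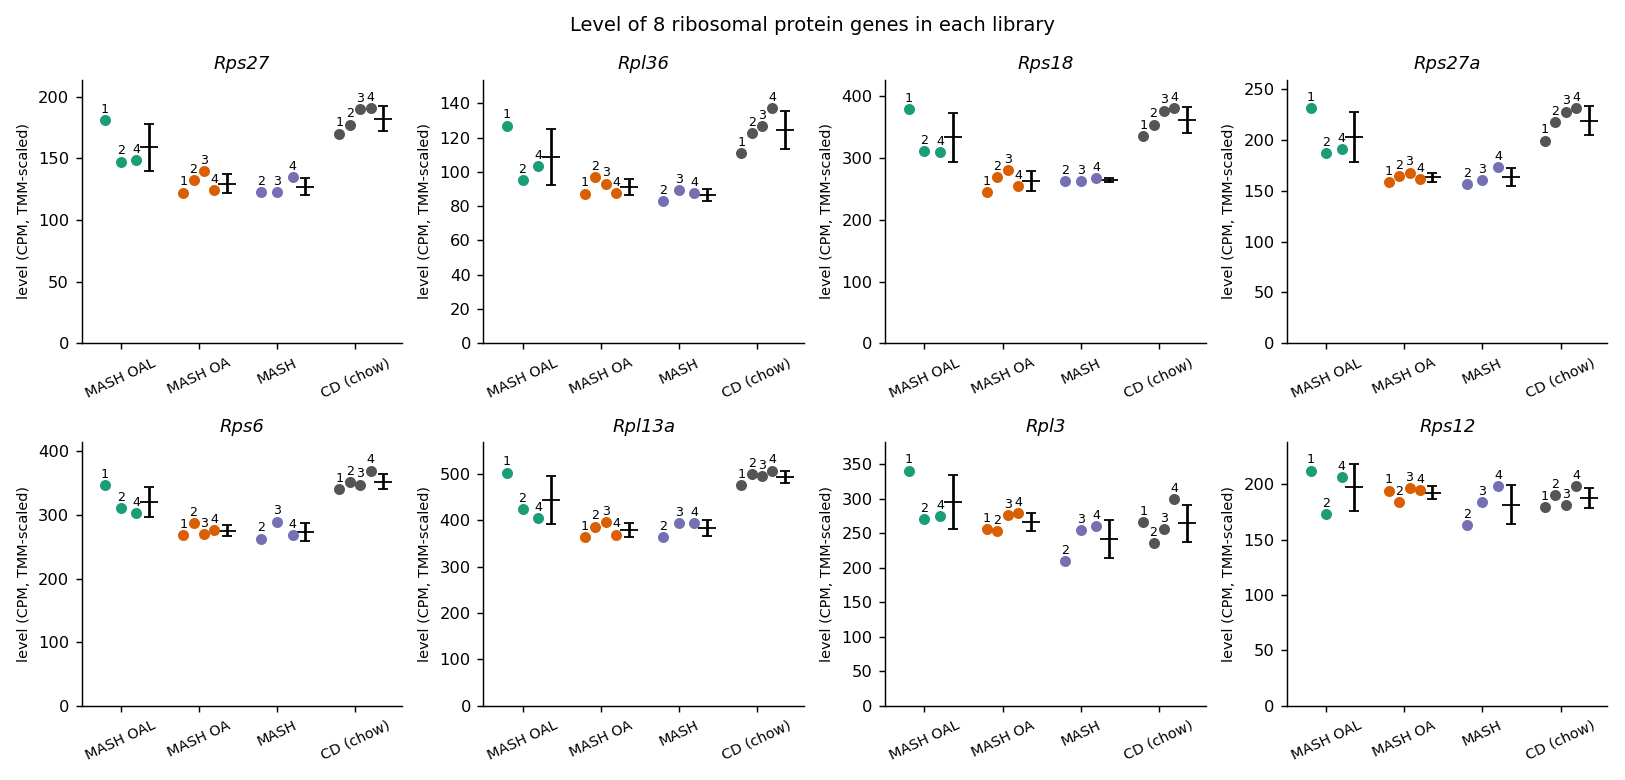
TMM-scaled level (CPM) of 8 ribosomal protein genes in each library; points are libraries with their replicate numbers, bars are the mean and SD of a group, and axes start at 0. For Rps27, Rpl36, Rps18, Rps27a, Rps6 and Rpl13a all MASH and MASH OA libraries lie below all chow libraries, while Rpl3 and Rps12 overlap between MASH and chow; against library totals alone only Rps27 and Rpl36 remain past the threshold in MASH against chow.

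The count of falls held within 1.5 times when most single libraries were left out, but it dropped to 36 without MASH replicate 2. Over all genes 2003 of 15947 then fell. That library had the lowest level for 55 of the 76 protein-coding members. Transcripts of hepatocytes and of other liver cells moved in the same comparison. Of 13 hepatocyte markers 11 fell in MASH livers (median −0.72), and of 12 markers of recruited macrophages 12 rose (median 3.19); summed, the macrophage markers were 347 to 859 CPM of the library total in MASH and 57.8 to 91.5 CPM in chow livers. In whole liver, fewer cells of a type and less RNA per cell cannot be told apart, and the part of these shifts in the ribosomal protein result was not tested.

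Of the ribosomal proteins whose symbols fall outside the rule, 7 of 9 fell in MASH livers under TMM scaling and 0 rose, and 0 fell against library totals. Rpsa, the laminin receptor that is also a small subunit protein, averaged 324.6 ± 17.3 CPM in MASH (SD, n = 3) against 408.5 ± 14.6 CPM in chow livers (n = 4) (−0.33, adjusted p = 0.00706 by edgeR). Fau, a ubiquitin-like fusion that yields a small subunit protein, averaged 151 CPM in MASH and 201 CPM in chow livers (−0.41, adjusted p = 0.00736).

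Of 39 translation factors 18 fell in MASH livers and 0 rose (median −0.23), a pattern that library totals turn to 0 falls and 1 rise. Eif4b, which helps the helicase that unwinds messengers and is itself a target of S6 kinase, averaged 288.6 ± 24.4 CPM in MASH and 409.7 ± 30.6 CPM in chow livers (−0.51 ± 0.09, adjusted p = 0.00104 by edgeR). Eef1d, of the complex that recharges elongation factor 1, fell by 0.30 on the log2 scale, and Eif2s2, the beta subunit of initiation factor 2, by 0.32.

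Of 65 factors that build ribosomes 12 fell and 3 rose (median −0.10), where 15.1% of all genes fell and 20.4% rose. With library totals 1 fell and 17 rose, where 554 of all 15676 genes fell and 5951 rose; these shares of all genes are the background of the other lists too. Rcl1, a factor of early small subunit assembly, fell to 102 CPM in MASH livers, against 153 CPM in chow livers (−0.58, adjusted p = 0.000884 by edgeR). Among 20 genes of RNA polymerase I transcription, which makes ribosomal RNA, 4 fell and 1 rose under TMM scaling, near the share of all genes that fell, and 0 fell and 6 rose with library totals. The one that rose was Taf1c, a subunit of its promoter factor, at 4.04 ± 0.274 CPM in MASH and 2.20 ± 0.241 CPM in chow livers (0.87 ± 0.14, adjusted p = 0.00053).

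Of 17 chaperones and carriers of ribosomal and nascent proteins 5 fell and 1 rose, against 0 and 5 with library totals. Naca, a subunit of the complex that covers new peptides at the ribosome's exit, averaged 164 CPM in MASH and 211 CPM in chow livers (−0.36, adjusted p = 0.000875 by edgeR). Its partner Btf3 changed by −0.26.

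Among 21 regulators in and below mTORC1, 7 fell and 3 rose (library totals: 1 and 5). Mtor itself, the kinase, averaged 83.5 ± 7.85 CPM in MASH and 66.0 ± 2.90 CPM in chow livers (0.34 ± 0.07, adjusted p = 0.00238 by edgeR), and Mlst8, its partner subunit, 14.3 CPM in MASH and 9.96 CPM in chow livers (0.52, adjusted p = 0.000509). Eif4ebp3, an inhibitor of cap-dependent initiation, stood at 14.6 ± 6.48 CPM in MASH against 74.2 ± 34.9 CPM in chow livers (−2.35 ± 0.46, adjusted p = 0.00224). In the pathway that rescues stalled ribosomes 7 of 18 genes fell, with the smallest p for Hbs1l (−0.50, adjusted p = 0.00248), and with library totals 1 fell and 5 rose. Genes of the mitochondrial ribosome, a list chosen after other results were known, gave 33 falls and 1 rise among 78, against 3 and 13 with library totals.

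Across the 14 libraries the protein-coding members varied together. Pearson's r between pairs of members on log2 CPM had a median of 0.87 over 2850 pairs (0.07 to 0.99), and 68 of 76 members had an r above 0.8 with the mean of the others; all members of a library share its scaling factor and its tissue, so this is a description of these libraries. The members least like the rest were Rps3a3 (r = −0.20), Rps12 (0.40) and Rpl3 (0.57). In MASH OA against chow, Rps12 at 0.04 and Rpl3 at 0.01 were also the protein-coding members with log2 fold changes above 0, and neither passed the threshold. Levels per kilobase of annotated transcript, over all libraries, were highest for Rplp1 (710 CPM per kilobase), Rps2 (655) and Rps14 (553.5), and among protein-coding members lowest for Rps20 (31.1), whose annotated transcript has 3706 bases.

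Ribosomal protein genes have many near-identical processed copies in the genome, and how the counting shared reads among them is not stated. The 193 other rows with a pseudogene symbol, which are not members, would add 0.712% to the members' summed counts. Rps3a2 averaged 3.82 CPM in MASH and 5.14 CPM in chow livers and fell (−0.43, adjusted p = 0.0216 by edgeR). The call was lost without MASH replicate 3, without MASH replicate 4, with no filter and with library totals, and whether its reads came from Rps3a1, which it resembles, cannot be told apart here. Rps3a3 had 6 to 31 counts per library and interval bounds of −0.59 and 0.97 in the same comparison.

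**Figure D3:**
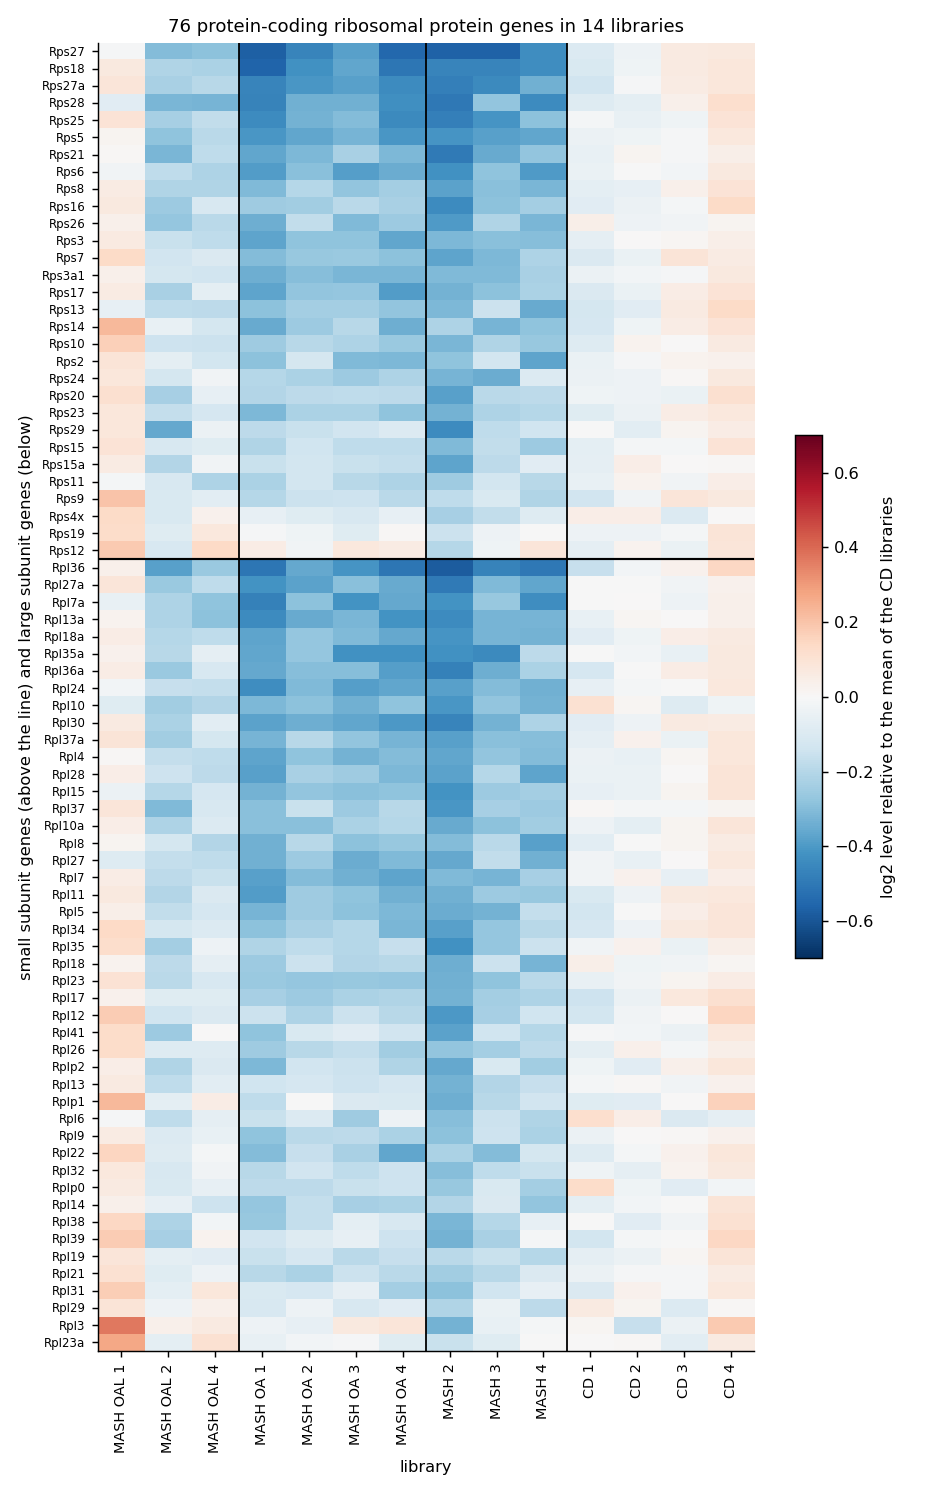
Log2 TMM-scaled level of each of the 76 protein-coding members (rows, small subunit above the line, ordered within a subunit by the MASH against chow fold change) in each of the 14 libraries (columns), relative to the mean of the chow libraries; blue is lower and red is higher. Nearly all rows are blue in the MASH and MASH OA columns, and the MASH OAL replicate 1 column resembles chow; against library totals alone 2 of 78 members were lower in MASH than in chow.

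MASH OA livers were also compared with chow, using the same chow libraries as above. Under TMM scaling 56 of 78 members fell and 0 rose, where 24.9% of all genes fell and 27.8% rose (52.6% in either direction); with library totals 0 fell and 20 rose, where 851 of all 15676 genes fell and 8175 rose, and the members' median of 0.11 lay below the 0.36 of all genes. The median log2 fold change was −0.26, and in 66 members the groups did not overlap with MASH OA lower, where 22.0% of all genes did so. Rps27 had 122.2, 132.2, 139.6 and 124.0 CPM in MASH OA livers against 170.0, 177.3, 189.9 and 190.8 CPM in chow livers, without overlap (−0.49 ± 0.08, adjusted p = 0.000248 by edgeR). Rps18 changed by −0.46, Rpl36 by −0.45 and Rps27a by −0.43. Groups from the treatment tags move MASH OAL replicate 1 into MASH OA and MASH OA replicate 1 into MASH. With them 11 of 78 members fell, near the share of all genes, of which 2469 of 16000 fell. Without MASH OA replicate 1, 50 members fell, where 3156 of 15553 genes did. In the same comparison 12 of 13 hepatocyte markers fell (median −0.995), and 12 of 12 markers of recruited macrophages (median 3.605), 9 of 11 of T and NK cells, 9 of 10 of stellate cells and fibroblasts and 6 of 8 of cholangiocytes rose; their part in the result was not tested.

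C18:1 was set against the MASH diet alone to ask how livers given the fatty acid differed, with any difference in age or weeks on diet included. No member passed the threshold in MASH OA against MASH, 0 higher and 0 lower, where 0% of all genes passed by edgeR; 968 genes but 0 members had an unadjusted p under 0.05, and DESeq2 called 0 members. The median log2 fold change of the members was 0.02. It was 0.11 with library totals, where 6 members had an unadjusted p under 0.05 and the median of all genes was 0.10. With groups from the treatment tags it was 0.12, with 77 of 78 members above 0 and 3 at an unadjusted p under 0.05, and without MASH OA replicate 1 it was 0.03 with 0 such members; no member passed the threshold in any of these. The groups did not overlap in 1 member that was higher, Rpl13, where 2.79% of all genes were higher and 2.67% lower in that way. Rpl13 came nearest, with 238.4, 242.1, 237.7 and 242.4 CPM in MASH OA livers and 208.8, 227.9 and 235.6 CPM in MASH livers. The MASH OA values were tightly grouped and all higher, yet the interval of the difference of 0.10 ran from −0.05 to 0.25 (adjusted p = 0.781). Over all members the interval of a log2 difference reached a median of 0.17 to either side, so smaller differences in a single gene were not detectable. These intervals are not adjusted for the number of genes tested, so somewhat larger differences could also have been missed.

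C18:1-leucine was given on the same diet, and MASH OAL against MASH gave 0 members higher and 0 lower by edgeR, where 0.00638% of all genes rose and 0.0638% fell (0.0702% in either direction). In 42 members all MASH OAL libraries lay above all MASH libraries, where 10.3% of all genes did so. At an unadjusted p under 0.05 there were 59 members, where 2833 of 15676 genes had one, and the members' median log2 fold change was 0.21. With library totals there was 1 such member and the median was 0.07, beside −0.14 for all genes. DESeq2 called 25 members and 419 of all genes higher, and limma voom 0 members and 223 of all genes. Rps18 had 379.2, 312.0 and 309.6 CPM in MASH OAL livers and 262.3, 262.3 and 267.6 CPM in MASH livers, with no overlap and the smallest p (0.34 ± 0.09, adjusted p = 0.107 by edgeR). For Rps27 the values were 181.0, 147.3 and 148.8 CPM in MASH OAL against 122.8, 122.7 and 134.7 CPM in MASH (0.33, adjusted p = 0.107), and for Rps27a 231.4, 186.7 and 190.9 CPM in MASH OAL against 156.7, 160.3 and 173.2 CPM in MASH (0.31, adjusted p = 0.113). In all 3 genes replicate 1 is the highest MASH OAL library by far. Without it 0 members passed the edgeR threshold and 8 had an unadjusted p under 0.05.

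The direct comparison of the compounds, MASH OAL against MASH OA, asks how livers given C18:1-leucine differed from those given C18:1. Without doses or a group given leucine alone, it cannot isolate an effect of the leucine part. Under TMM scaling 15 of 78 members rose and 0 fell, where 7.34% of all genes rose and 8.89% fell, and the members' median log2 fold change was 0.18; with library totals 0 rose and their median was −0.04, beside −0.24 for all genes. All MASH OAL libraries lay above all MASH OA libraries in 46 members and below them in 1, where 13.5% and 14.2% of all genes did so. Of the 15, 10 were small and 5 large subunit genes. Rps18 rose most, at 379.2, 312.0 and 309.6 CPM in MASH OAL livers against 244.9, 269.5, 280.9 and 254.7 CPM in MASH OA livers, without overlap (0.35 ± 0.09, adjusted p = 0.0194 by edgeR).

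Rps27a had 231.4, 186.7 and 190.9 CPM in MASH OAL livers and 158.6, 164.5, 167.9 and 161.2 CPM in MASH OA livers (0.32 ± 0.08, adjusted p = 0.024 by edgeR). Rps14, whose reduced dosage in humans leads to a form of anaemia, had 421.5, 347.9 and 330.7 CPM in MASH OAL and 282.4, 302.1, 315.6 and 284.4 CPM in MASH OA (0.31, adjusted p = 0.0379). Rpl30 rose by 0.30 (adjusted p = 0.0239) and Rps27 by 0.30 (adjusted p = 0.0332), and for all 5 genes the groups did not overlap. Rpl22, whose protein also binds RNA outside the ribosome, was among the 15 as well (0.28, adjusted p = 0.028), as was Rps3 (0.24, adjusted p = 0.0485).

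The number of rises changed with single libraries. Without MASH OAL replicate 1, the library tagged OA, 0 members passed and the median was 0.12; without MASH OA replicate 1, the library tagged with diet alone, 0 passed, while the median was 0.17 and the lowest adjusted p 0.0513 (edgeR). With both left out 0 passed and the median was 0.10. With groups from the tags 0 passed and the median was 0.02. Leaving out MASH OA replicate 4 gave 1 rise, where 470 of all 15625 genes rose. Leaving out MASH OA replicate 3 gave 8 (817 of 15554 genes) and MASH OAL replicate 2 gave 7 (282 of 15980 genes). MASH OAL replicate 1 had the highest level of all 14 libraries for 39 of 76 protein-coding members, and its neutrophil transcripts stood at 59.6 CPM of the library total, against 3.15 to 28.6 CPM in the others. Between the groups, 6 of 13 hepatocyte markers rose in MASH OAL livers (median 0.61), while 9 of 12 recruited macrophage markers (median −1.26) and 5 of 11 markers of T and NK cells (median −1.26) fell. All 6 erythroid markers tested rose (median 1.46). Erythroid transcripts were at 364 to 651 CPM in MASH OAL and 182 to 429 CPM in MASH OA livers, and pancreatic enzyme transcripts reached 621 CPM in MASH OAL replicate 2, against 4.97 to 9.28 CPM in MASH OA livers; the part of these in the result was not tested.

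The wider lists were tested in the same contrast. Of 39 translation factors 8 rose and 0 fell, among them Eif4b at 360.6 ± 24.96 CPM in MASH OAL against 277.4 ± 15.2 CPM in MASH OA livers (0.38, adjusted p = 0.0142 by edgeR) and Eif3e, a subunit of initiation factor 3 (0.34, adjusted p = 0.0139). Without MASH OAL replicate 1 there were 3 rises, and with library totals 0 rises and 6 falls. Of 65 biogenesis factors 6 rose and 2 fell; with library totals 0 rose and 20 fell, and without MASH OAL replicate 1 there was 1 rise and 0 falls. Among all genes 7.34% rose and 8.89% fell, and with library totals 259 of 15676 rose and 3457 fell. Imp3, of the small subunit processome, rose by 0.38 (adjusted p = 0.00846), and Tcof1, the treacle protein that serves ribosomal RNA transcription, fell to 8.53 ± 0.166 CPM in MASH OAL livers, against 11.6 ± 0.844 CPM in MASH OA livers (−0.45, adjusted p = 0.0143). Naca rose by 0.30 and Eif4ebp3 by 1.49 (adjusted p = 0.00975 and 0.033). Of the mitochondrial ribosomal proteins 24 of 78 rose and 0 fell, with 6 rises without MASH OAL replicate 1 and 0 with library totals. These lists were not counted with MASH OA replicate 1 alone left out, where 465 of 15553 genes rose.

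**Figure D4:**
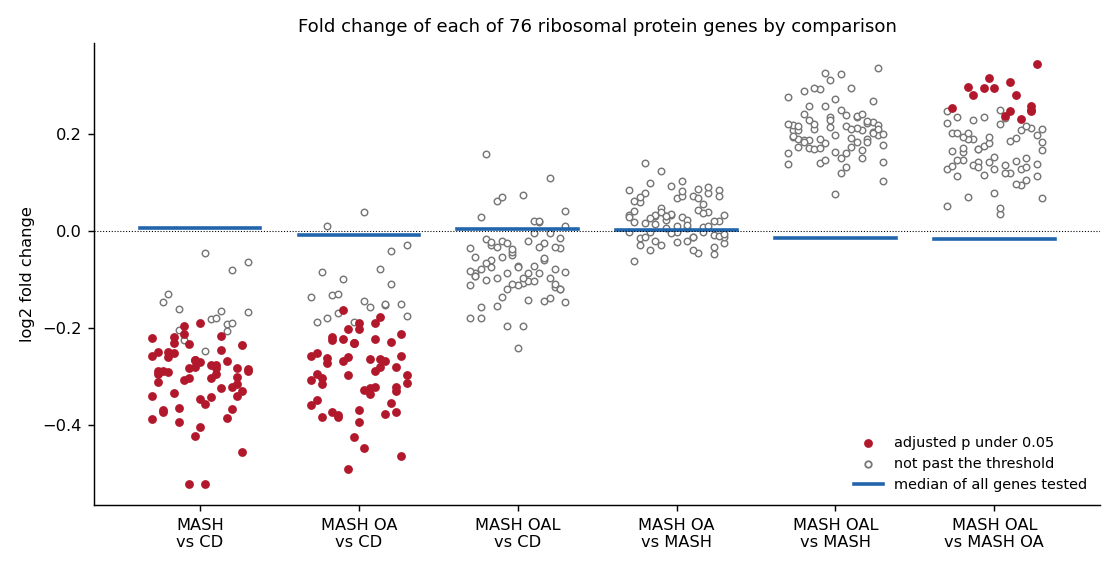
Log2 fold change of each of the 76 protein-coding members (points; filled red where the adjusted p of edgeR is under 0.05) in 6 comparisons under TMM scaling, with the median of all genes tested as a blue bar. The members lie below 0 in MASH against chow and, all but Rps12 and Rpl3, in MASH OA against chow. They lie around 0 in MASH OA against MASH, and above 0 in both comparisons of MASH OAL with other MASH-diet groups. With library totals alone the medians in MASH and MASH OA against chow are −0.00 and 0.11. The median of MASH OAL against MASH OA is then −0.04.

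MASH OAL livers did not differ past the threshold from chow livers in any member, 0 higher and 0 lower by edgeR, where 10.2% of all genes rose and 4.34% fell. At an unadjusted p under 0.05 there were 5 members, where 4929 of 15676 genes had one. DESeq2 called 3 members and 1237 of all genes lower, and limma voom 10 members and 1263 of all genes. Without MASH OAL replicate 1 edgeR called 3 members and 376 of 15954 genes lower. Rps28 had the smallest p, with 106.7, 90.33 and 90.03 CPM in MASH OAL livers and 106.1, 107.8, 115.8 and 122.3 CPM in chow livers. MASH OAL replicate 1 reached into the chow range and the other two did not (−0.24, interval −0.42 to −0.06, adjusted p = 0.0679). Rpl10 differed by −0.18 (interval −0.34 to −0.02) and Rpl27 by −0.15 (−0.28 to −0.01). Over the 76 protein-coding members the intervals spanned −0.42 to 0.40 in all.

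**Figure D5:**
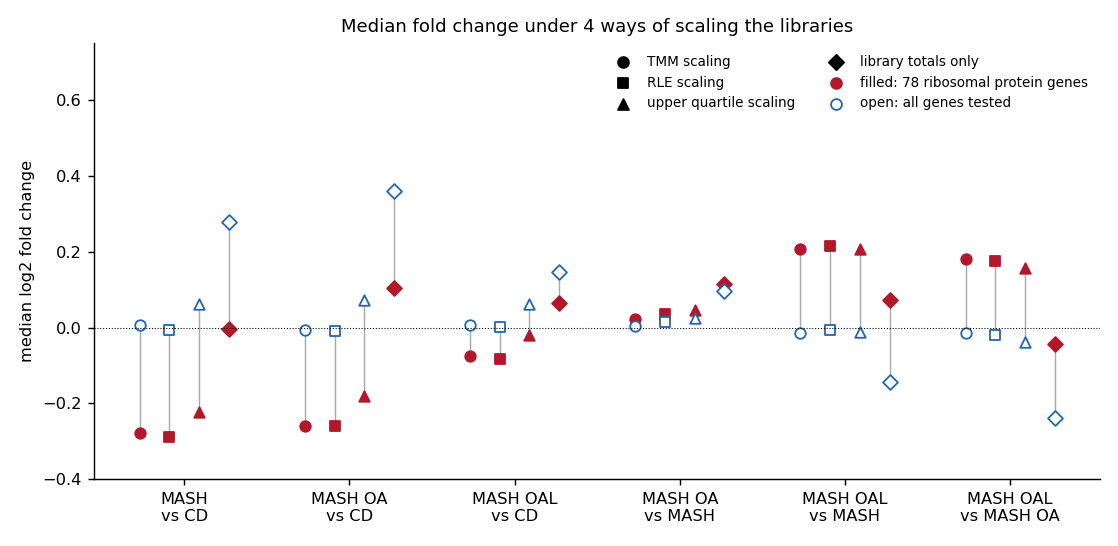
Median log2 fold change of the 78 members (filled) and of all genes tested (open) in 6 comparisons under TMM, RLE, upper quartile and library-total scaling (marker shapes); grey lines join the medians of one scaling. The distance between members and all genes stays at −0.28 in MASH against chow under all 4 scalings. Rescaling moves all genes of a library alike, so this distance could hardly change. The position against 0 moves, from −0.28 under TMM to −0.00 under library totals for the members.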

How the data were processed

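Liver RNA (RNeasy kit, NEBNext Ultra II libraries, per the labels' protocols) was sequenced in 14 libraries. The authors deposited 1 table of expected counts per Ensembl gene, with no scaling; 5.09% to 5.76% of the values in a library are fractional, and values were rounded to whole numbers here. The submitters' processing notes name HTSeq, DESeq2 1.42.1 and GRCm38 without saying what each did; no aligner is named in these sources. The deposited tables of the authors' comparisons were not used, since their group letters have no key.

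All 4 groups were fitted together with edgeR 4.0.16 (R 4.3.3): TMM scaling, a filter for at least 10 counts in enough libraries and 15 in total, and the robust quasi-likelihood F test, two-sided, with Benjamini and Hochberg adjustment over the 15676 genes tested and a threshold of 0.05. All adjusted p-values are from this fit unless DESeq2 1.42.0 or limma 3.58.1 (voom with sample weights) is named. Levels are TMM-scaled CPM, and intervals are 95%. The fit was tested on simulated data with as many rises as falls, so that test says nothing about the choice of scaling. Annotation came from GENCODE M21 and promoter sequences from RefSeq (GRCm38.p6).

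Members named are, in each comparison, those past the threshold (or the 5 with the largest rise and fall, or the 3 with the smallest p where fewer pass), those with the highest and lowest level per length and those least like the others, beside members with a well-known role. The members and gene lists were chosen with earlier results of these data known. Alternatives were other scalings, filters and tools, the replicate number as a block, groups from the treatment tags, and each library left out.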

Additional observations from a re-analysis of the deposited data

Results flagged for a closer look

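Among 60 groups of 4 libraries, 2 held a library far from the other 3 by Dixon's criterion, where chance gives about 5% of groups. Rps2, a small subunit protein and 1 of the members with the highest level per length, stood at 656.5 CPM in MASH OA replicate 2, against 576 to 586 CPM in the other MASH OA libraries. Rps20 reached 134.4 CPM in replicate 4 of the chow group, whose remaining libraries lay between 120.8 and 121.8 CPM. Its level per length was the lowest among protein-coding members, for an annotated transcript of 3706 bases.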

How the results depend on the processing

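For MASH against chow the count of members lower was 37 with upper quartile scaling (1813 of 15676 genes) and 2 with library totals (554 of 15676 genes). With library totals 37 of all 78 members lay above 0, against 1 in the main fit. Among the named members whose calls were checked, Rpl22 at 0.0593 and Rplp2 at 0.0403 changed sign there. Leaving out 1 library gave 36 to 63 members lower. For MASH OA against chow, library totals gave 20 higher and 0 lower (8175 higher and 851 lower among all 15676 genes). Upper quartile scaling gave 34 lower, where 2926 of 15676 genes were. The treatment tags gave 11 lower, near the share of all genes (2469 of 16000). Leaving out 1 library gave 50 to 60 lower. For MASH OAL against MASH, DESeq2 gave 25 higher. For MASH OAL against MASH OA the count of members higher was 6 with upper quartile scaling and 4 with the replicate block. Both are near the share of all genes, 966 of 15676 in each. The count was 6 with no filter (800 of 24600 genes) and 37 with DESeq2 (1568 of 15676 genes). It was 0 with library totals, with the treatment tags, with both disputed libraries left out and with the compared groups fitted alone, and 0 to 15 when 1 library was left out. For MASH OAL against chow, DESeq2 gave 3 lower and limma voom 10. Leaving out both disputed libraries gave 3 lower, where 373 of 15819 genes were, and leaving out 1 library gave 0 to 3. With the 50 most abundant other genes left out of the total, the members' share was 2.37% in MASH OAL, 2.32% in MASH OA, 2.19% in MASH and 2.27% in chow; with a TMM-scaled total it was 1.47% in MASH OA and 1.76% in chow. The cause of the other differences was not tested. With the replicate block 51 members were lower in MASH against chow, where 2191 of 15676 genes were. Libraries of the same number had a median correlation of 0.03 (−0.24 to 0.42), and those of different numbers −0.01 (−0.52 to 0.50). With so few libraries these values cannot show whether same-numbered libraries share a batch. Of the summary values 281 stayed within 1.5 times or their spread and 31 did not. Most of the 281 are counts of 0 that stayed at 0, so this tally says little about the counts above 0. Of the checks on named members 488 kept their call, 85 lost it and 2 changed sign. The fall of Rpl22 in MASH against chow was lost in 13 of 25 alternatives.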
